A study of Sus scrofa with 61 samples.

Results

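Molecular chaperones and protein folding enzymes keep newly made proteins from aggregating and bring them to their final shape. In the liver the compartment matters, since plasma proteins are folded and given their disulfide bonds in the endoplasmic reticulum (ER), while actin, tubulin and most enzymes of the hepatocyte are folded in the cytosol by HSP70, HSP90 and the ring-shaped chaperonin TRiC, and imported mitochondrial proteins by HSP60 with its lid HSP10. HSP70 proteins work in a cycle that J proteins (DNAJ genes) start and that nucleotide exchange factors such as the HSP110 proteins end, and FKBP proteins and cyclophilins turn the peptide bonds before proline.

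The members were taken by symbol from the annotation of the array. They were the genes whose symbol began with HSP (heat shock protein), DNAJ, PDIA (protein disulfide isomerase) or FKBP, the TRiC subunits TCP1 and CCT, and the cyclophilins PPIA to PPIH. Of the 6765 genes that the array measured with at least 1 probe-set of a single symbol, 75 were members. They were carried by 119 probe-sets, and each gene was represented by the probe-set with the highest mean signal. By the place in the cell that was assigned to each gene here, 16 members were of the ER, 41 of the cytosol and 7 of the mitochondrion. The other 11 were counted as of other places such as the nucleus. DNAJC14 was counted with these, although it could also be counted with the ER.

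The data came from 61 liver samples of German Landrace pigs, 1 Affymetrix GeneChip Porcine Genome Array for each animal. All animals were offspring of gilts on the gestational low protein diet (LP), so every stage carried the same maternal treatment, and arrays of the adequate protein group were not analysed here. The stages were 94 days post conception (94 dpc, 16 fetuses), 1 day post natum (1 dpn, 14 neonates), 28 dpn (15 piglets at weaning) and 188 dpn (16 finishing pigs). Transitions between adjacent stages are called periods I, II and III. Per the study's methods, the fetuses were obtained by Caesarean section in an experiment of their own, so in period I the stages and the experiments cannot be told apart. Piglets not sampled at 1 dpn were moved to foster sows on an adequate diet, and animals of 28 and 188 dpn were fasted overnight, so feeding and stage cannot be told apart in period II. Standard diets were fed from weaning on, so the same holds for diet in period III. Fetuses and neonates were killed by injection of different drugs, and older animals by electronarcosis and bleeding. The way of killing thus cannot be told apart from stage in periods I and II. Light and heavy littermates were sampled, but the labels name neither litter nor sex, so siblings were counted as separate animals and the p-values may be too small.

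Values are log2 intensities, the log2 of the signal of a probe-set after global scaling of each array by the authors. Levels of different genes are not comparable on this scale. A change is the difference between the means of 2 stages, later minus earlier, with its standard error (SE), and it was called where neither P nor the Storey q exceeded 0.05 in a limma fit over all probe-sets that passed filters on intensity and spread. Of the 75 members, 62 exceeded the median signal of the array in 50% or more of the animals at every stage, 8 at 1 to 3 stages and 5 (DNAJA4, DNAJC6, FKBP6, HSPB3 and HSPB7) at none. All 16 hepatocyte markers on the array were above the array median at every stage. Their summed level had a median of 716520 linear units in the fetuses, 793121 in the neonates, 611707 at 28 dpn and 571691 at 188 dpn. Of 14 tested in period I, 6 were higher and 1 lower, and of 12 in period II, 1 was higher and 9 lower. All genes gave 33.9% higher and 35.4% lower in period I, and 33.2% and 39.1% in period II. For 6 bile duct markers the medians were 3199, 4582, 3699 and 2909. The liver is a mixture of cells, and fewer cells of a type and less RNA per cell cannot be told apart here. The summed level of 8 erythroid markers had a median of 13882 linear units in the fetuses, 2347 in the neonates, 3764 at 28 dpn and 4122 at 188 dpn, and that of 14 cell division markers 5531, 8973, 3853 and 1224. Medians were 12760, 4935, 1180 and 962 for 7 granulocyte markers, with 6 of 6 tested lower in period II. They were 20725, 27535, 66656 and 45083 for 9 macrophage markers, and 684, 634, 2549 and 1923 for 10 T and NK cell markers, none of which exceeded the array median in 50% or more of the fetuses. The part of these cells in the changes of the members was not tested. The median signal of an array lay between 152 and 178 units at 94 dpc, 140 and 162 at 1 dpn, 105 and 131 at 28 dpn and 95.1 and 128 at 188 dpn. The 3' minus 5' difference of the beta-actin control probe-sets averaged 2.27, 1.78, 3.94 and 4.03 log2 units over the 4 stages. That of GAPDH had another order, with 1.05, 0.39, 0.79 and 0.64. For EF1A the means were -0.016, -0.14, 0.39 and 0.56, with a wide spread at 188 dpn (SD 0.53). One neonate was the highest of its stage in 31 of the 75 members, among them 19 of the 41 cytosolic genes. Periods I and II are given without it where that lost a call, and leaving it out also added 1 call in period II.

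The mean log2 level of the ER members was highest in the neonates (11.57 ± 0.28, SD, n = 14, against 10.93 in the fetuses), that of the cytosolic members was lower at each later postnatal stage (9.58, 9.24 and 8.97), and that of the mitochondrial members stayed between 11.92 and 12.09. In period I, 11 of 15 tested ER members were higher and 2 lower, against 11 higher and 8 lower of 32 in the cytosol and 2 higher and 3 lower of 7 in the mitochondrion. Over all genes tested, 33.9% were called higher and 35.4% lower in period I. The median change was 0.55 over the 16 ER members, 0.07 over the cytosolic and -0.06 over the mitochondrial members, beside -0.01 over all genes. Without the neonate that was highest in most members, 10 ER members were called higher, FKBP7 being the one lost. The call of FKBP7 was also lost after Benjamini-Hochberg adjustment and in 1 fit of all 4 stages. It was lost as well without arrays of outlying 3' to 5' differences and without the least correlated array of each stage. Quantile normalization lost the calls, or the tests, of the ER members FKBP11 and PDIA6.

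In period II no member assigned to the ER was higher and 11 of 14 were lower. The 39 lower and 7 higher calls among all 61 tested members stood beside 39.1% lower and 33.2% higher among all genes. The ER counts depend on the assignment of members to places. DNAJC14, which could also be counted with the ER, was called lower in period I (-0.71) and higher in period II (0.51), against the course of most ER members. The median changes were -0.66 in the ER, -0.30 in the cytosol and -0.28 in the mitochondrion, and -0.12 over all genes. In period III, again none of the ER members was higher and 11 of 15 were lower (median -0.73), 20 of 29 cytosolic members were lower and 4 higher (-0.26), and 3 of 5 mitochondrial members were higher and none lower (0.28). The background of period III was 21.7% higher and 39% lower with a median of -0.09. Between the first and the last stage, 45 of 64 tested members were lower and 12 higher, where all genes gave 48% lower and 36.7% higher. That comparison shares its fetuses with period I and its oldest pigs with period III. The 2 stages did not overlap in 10 of 64 tested members in period I, 7 of 61 in period II, 3 of 56 in period III and 27 of 64 over the whole span, beside 10.1%, 10.7%, 1.95% and 29.6% of all genes tested.

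The split of the calls depended on how arrays were set to one level. When the median of each array was subtracted in place of the authors' scaling, the median change of all genes moved to 0.13, 0.23 and 0.07 in periods I to III and to 0.44 from the first to the last stage. Calls among the members then were 31 higher and 14 lower in period I, 16 and 21 in period II, 14 and 29 in period III, and 27 and 27 over the whole span. Under that scaling the cytosolic median of period II was 0.045 and the mitochondrial one 0.071, so their direction was reversed, while the ER median stayed below 0 at -0.31. In period III the ER median was -0.57 and the cytosolic one -0.097. Calls lost under that scaling, or no longer tested, were those of HSPB11 and HSPD1 in period I, of 18 members in period II (CCT4, DNAJA3, DNAJC17, DNAJC24, FKBP3, FKBP4, FKBP5, FKBP7, FKBP8, HSP90AA1, HSPA5, HSPA8, HSPA9, HSPB11, HSPD1, HSPH1, PPIF and PPIH) and of CCT2, DNAJB1, FKBP9, HSPB2, HSPBP1 and PPIG in period III. Over the whole span 16 calls were lost, among them those of HSP90B1, PDIA3, PDIA6, DNAJB11, HSPA9, HSPD1 and HSPE1.

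**Figure D1:**
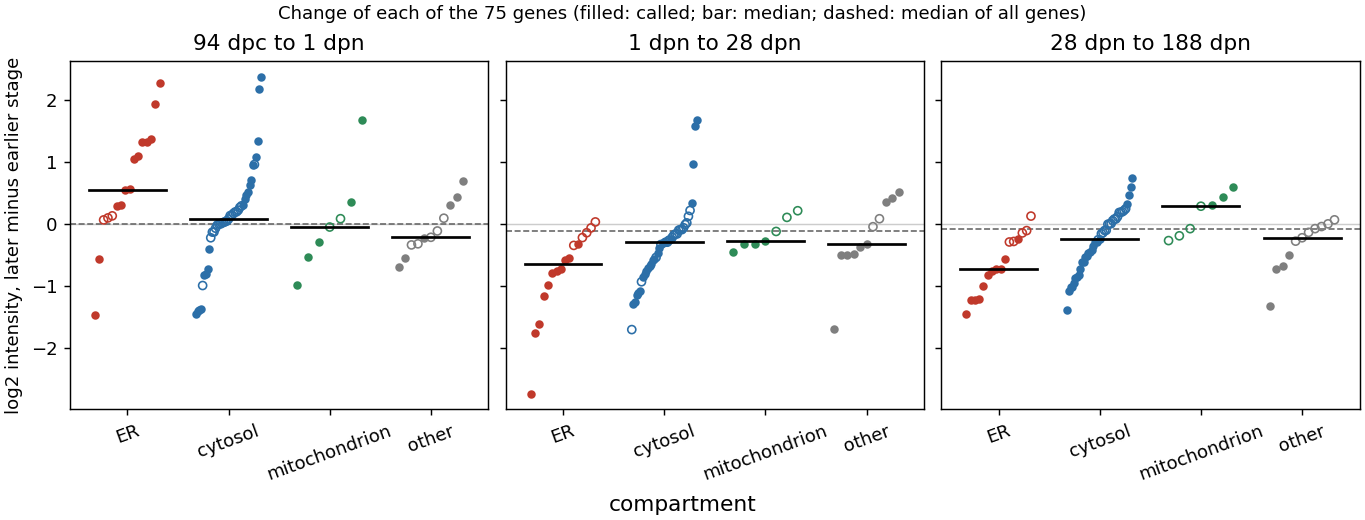
Change of each member in periods I to III in log2 intensity, later minus earlier stage, by compartment, with filled points for called members, bars for the median of a compartment and a dashed line for the median of all genes. The ER points lie mostly above 0 in period I (median 0.55) and mostly below it in periods II (-0.66) and III (-0.73).

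A difference between compartments within an animal does not depend on the scaling of its array. The mean log2 level of the ER members minus that of the cytosolic members lay between 1.21 and 1.65 (median 1.41) in the fetuses, 1.49 and 2.28 (1.99) in the neonates, 1.27 and 1.84 (1.48) at 28 dpn and 0.57 and 1.37 (1.17) at 188 dpn. Only its movement between stages can be read, not its size. The cytosolic mean includes the 5 members that exceeded the array median in 50% or more of the animals at no stage (DNAJA4, DNAJC6, FKBP6, HSPB3 and HSPB7). None of these was of the ER or the mitochondrion, so signals near the background enter the cytosolic side only. All neonates but 1 were above every fetus, the 28 dpn piglets overlapped with the fetuses, and the oldest pigs were the lowest of the 4 stages by mean (1.12 ± 0.21, SD, n = 16). For mitochondrial minus cytosolic members the means were 2.57, 2.51, 2.68 and 3.10. At 188 dpn the lowest animal (2.87) was above the highest fetus (2.77). Both measures are descriptions over the chosen genes and were not tested.

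**Figure D2:**
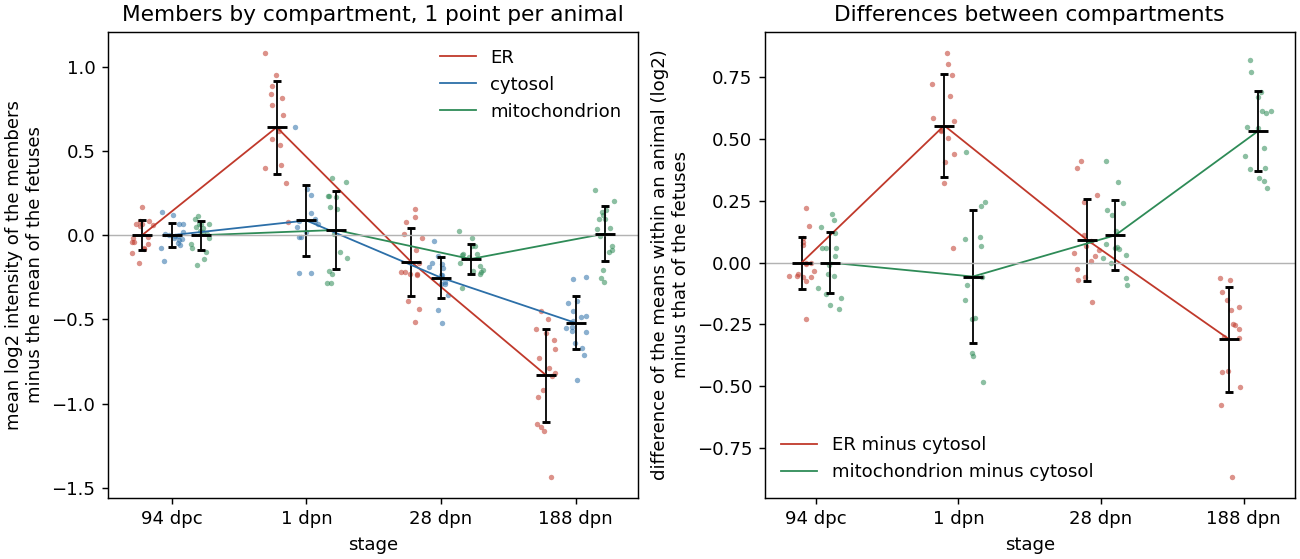
Mean log2 intensity of the ER, cytosolic and mitochondrial members in each of the 61 animals, relative to the mean of the fetuses (left), and the differences between compartments within an animal, relative to the fetuses (right). Points are animals and black bars show mean and SD. The ER mean was 11.57 in the neonates against 10.93 in the fetuses and 10.10 at 188 dpn, and mitochondrial minus cytosolic members stood highest at 188 dpn.

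Among the ER members, the central chaperone HSPA5 (BiP), the HSP70 of the ER lumen, ranged over 13.82 to 14.54 (median 14.26) at 94 dpc, 14.05 to 15.61 (14.80) at 1 dpn, 14.03 to 14.92 (14.53) at 28 dpn and 12.56 to 13.89 (13.22) at 188 dpn. It was thus highest in the neonates and lowest in the oldest pigs, whose range did not reach that of the 28 dpn piglets. HSPA5 rose by 0.55 (SE 0.11, q = 1.62e-05) in period I, fell by 0.33 (SE 0.12, q = 0.00291) in period II and fell by 1.24 (SE 0.13, q = 2.1e-09) in period III, a 2.36-fold decrease. With array medians subtracted, the change in period II was 0.018 and was not called.

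HSP90B1 (GRP94), the HSP90 of the ER, had levels of 12.17 to 12.90 (median 12.57) at 94 dpc, 12.57 to 14.37 (13.75) at 1 dpn, 12.39 to 13.70 (12.85) at 28 dpn and 10.71 to 12.88 (11.74) at 188 dpn. It rose 2.07-fold in period I (log2 1.05 (SE 0.13, q = 1.02e-08)) and fell in both later periods, by 0.73 (SE 0.16, q = 3.42e-05) and by 1.23 (SE 0.19, q = 1.65e-06). The stages overlapped in each of these comparisons, and its other probe-set was called in the same direction every time.

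Of the J proteins that hand clients to BiP, DNAJB11 had the largest rise in period I. DNAJB11 (ERdj3) was at 9.23 to 9.95 (median 9.62) at 94 dpc, 10.44 to 12.98 (12.05) at 1 dpn, 9.27 to 10.83 (10.34) at 28 dpn and 8.02 to 9.59 (8.85) at 188 dpn. No neonate overlapped with any fetus, and the rise of 2.27 (SE 0.19, q = 1.78e-12) was 4.81-fold. It fell by 1.63 (SE 0.22, q = 2.39e-08) in period II and by 1.46 (SE 0.16, q = 2.47e-09) in period III, so that the oldest pigs were below the fetuses by 0.82 log2 units, a call that was lost with array medians subtracted (-0.17).

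DNAJC3 (p58IPK), a J protein known to restrain the stress kinase PERK, was at 8.86 to 10.00 (median 9.39) at 94 dpc, 9.94 to 11.51 (10.69) at 1 dpn, 8.02 to 9.87 (9.03) at 28 dpn and 7.81 to 8.84 (8.62) at 188 dpn. Its rise in period I was 1.37 (SE 0.14, q = 1.24e-10) and its fall in period II -1.76 (SE 0.17, q = 4.25e-11), the latter with no overlap between neonates and 28 dpn piglets. DNAJB9 (ERdj4), a J protein that in mouse represses the sensor IRE1, rose by 1.09 (SE 0.14, q = 7.01e-09) and fell by 1.17 (SE 0.14, q = 3.8e-09), and was not called in period III (-0.15 (SE 0.14, q = 0.112)). All 3 of its probe-sets gave the same calls in periods I to III. DNAJB14, anchored in the ER membrane, was not called in period I (0.06) and fell in periods II and III (-0.98 and -0.72). Its call in period III was lost when its probe-sets were averaged. DNAJB14 was above the array median in 12 of 15 piglets at 28 dpn and 7 of 16 pigs at 188 dpn. It thus passed the intensity filter of period III by the 28 dpn piglets only.

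**Figure D3:**
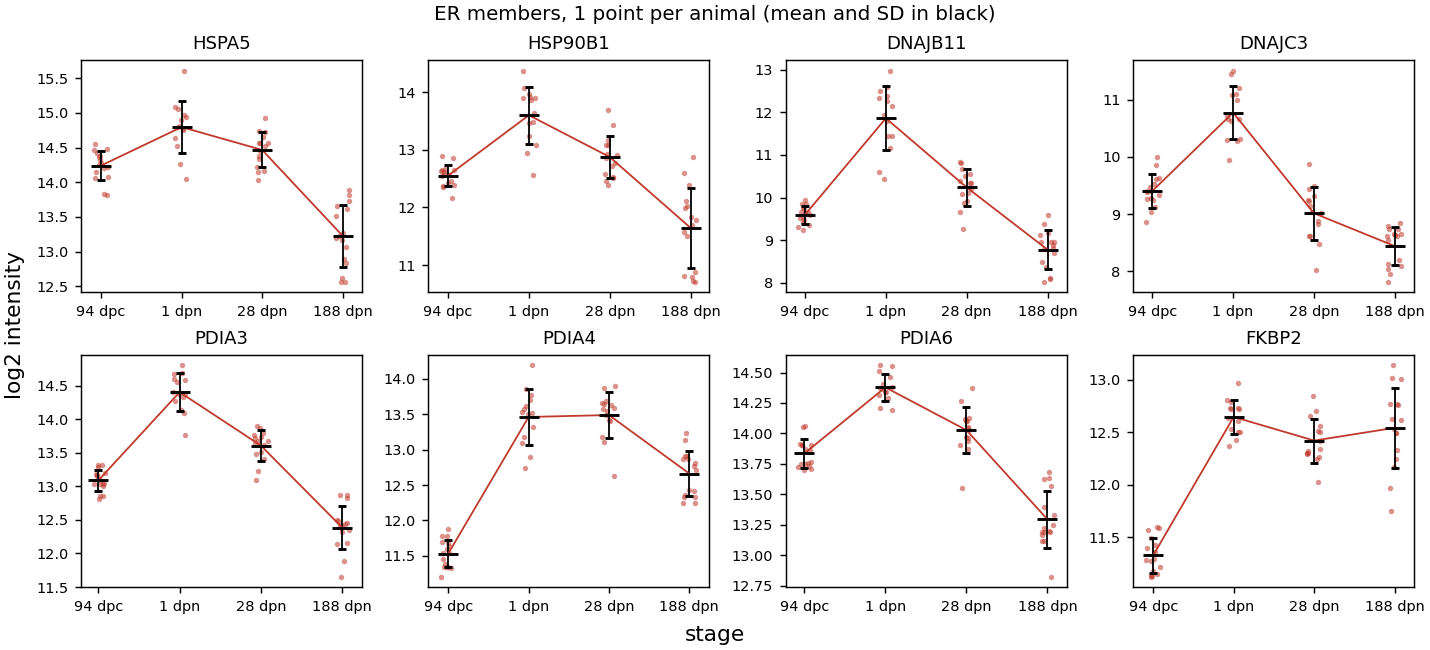
Log2 intensity of 8 ER members in each animal by stage, with mean and SD in black. Most panels peak at 1 dpn and are lowest at 188 dpn, as for DNAJB11 (mean 11.86 against 8.77), while FKBP2 and, by the probe-set used, PDIA4 stayed above the fetal level at 188 dpn.

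Disulfide isomerases followed the same course with 1 exception. PDIA3 (ERp57), which works with calnexin and calreticulin on glycoproteins, was at 12.81 to 13.32 (median 13.07) at 94 dpc, 13.76 to 14.80 (14.39) at 1 dpn, 13.09 to 13.89 (13.67) at 28 dpn and 11.66 to 12.88 (12.41) at 188 dpn. All neonates were above all fetuses (rise 1.31 (SE 0.09, q = 2.12e-14), 2.49-fold) and all of the oldest pigs were below all 28 dpn piglets (change -1.22 (SE 0.11, q = 4.71e-11)). PDIA6 (P5) lay in narrow ranges, 13.70 to 14.06 (median 13.82) at 94 dpc, 14.19 to 14.56 (14.37) at 1 dpn, 13.55 to 14.37 (14.04) at 28 dpn and 12.82 to 13.68 (13.21) at 188 dpn. It rose by 0.54 (SE 0.06, q = 1.06e-09) in period I with no overlap and fell by 0.73 (SE 0.09, q = 1.11e-08) in period III. The call of that rise, or its test, was lost after quantile normalization. In period II its change of -0.35 was not tested because its spread was under the filter.

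PDIA4 (ERp72) was at 11.21 to 11.88 (median 11.54) at 94 dpc, 12.74 to 14.19 (13.53) at 1 dpn, 12.63 to 13.90 (13.58) at 28 dpn and 12.24 to 13.23 (12.74) at 188 dpn. It rose 3.81-fold in period I without overlap (log2 1.93 (SE 0.11, q = 7.05e-16)), stood level in period II (0.03) and fell by 0.83 (SE 0.12, q = 3.26e-07) in period III, and at 188 dpn was still above the fetuses by 1.13. Its probe-sets disagreed on that last point. A second one, also called higher in period I (2.22), fell by 2.86 in period II and by 1.17 in period III and was 1.81 log2 units below the fetuses at 188 dpn (change -1.81, called lower), so the net direction of PDIA4 cannot be given.

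The prolyl isomerases of the ER were mixed. FKBP2 (FKBP13) was at 11.13 to 11.60 (median 11.29) at 94 dpc, 12.37 to 12.97 (12.67) at 1 dpn, 12.03 to 12.84 (12.34) at 28 dpn and 11.75 to 13.14 (12.57) at 188 dpn. It rose by 1.32 (SE 0.07, q = 2.47e-16) in period I with no overlap and then changed little (-0.23, not tested, and 0.12, not called), being 2.32-fold above the fetuses at 188 dpn. FKBP10, which folds collagen, went the other way, with a fall of 1.47 (SE 0.19, q = 1.73e-08) in period I from 8.01 to 10.31 (median 9.40) at 94 dpc, 7.11 to 8.51 (7.97) at 1 dpn, 7.02 to 8.46 (7.75) at 28 dpn and 6.60 to 8.77 (7.49) at 188 dpn. FKBP14, also known as a collagen chaperone, fell by 0.56 (SE 0.18, q = 0.00163) in period I and by 0.77 (SE 0.20, q = 0.000176) in period II. FKBP7 and FKBP9 were lower in periods II and III, with changes of -0.59 and -0.77 for FKBP7 and -0.56 and -0.24 for FKBP9. The fall of FKBP9 in period III was not called after Benjamini-Hochberg adjustment, without an intensity filter, after quantile normalization, with array medians subtracted or when arrays with outlying 3' to 5' differences were left out, and that of FKBP7 in period II not with array medians subtracted. FKBP11 rose by 0.30 in period I and was not called afterwards. The call of its rise, or its test, was lost after quantile normalization. Stellate cell and fibroblast markers, the collagen-making cells of the liver, had summed levels with medians of 14040, 10709, 11488 and 14628 units over the 4 stages. Of 6 tested in period I, 3 were lower and 1 higher, where all genes gave 35.4% lower and 33.9% higher. Their part in the change of FKBP10 and FKBP14 was not tested.

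HSPA13, a microsomal ATPase related to HSP70, had no called change in period I. Its range was 9.49 to 10.94 (median 10.51) at 94 dpc, 9.15 to 11.73 (10.51) at 1 dpn, 7.06 to 9.13 (7.65) at 28 dpn and 3.85 to 8.71 (6.98) at 188 dpn. It was not called in period I (0.13) and fell 6.68-fold in period II with no overlap (log2 -2.74 (SE 0.22, q = 1.19e-12)). The oldest pigs were 12.3-fold below the fetuses, again with no overlap, and a second probe-set fell by 3.69 in period II.

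The ER machinery outside the symbol families moved with the ER members. Of 14 further ER folding and quality control genes on the array, 11 were higher and 2 lower of 13 tested in period I, 1 higher and 9 lower of 10 in period II, and none higher and 10 lower of 11 in period III. Among all genes tested, 33.9% were higher and 35.4% lower in period I, 33.2% and 39.1% in period II, and 21.7% and 39% in period III. SDF2L1, which works with ERdj3, rose by 3.54 in period I (9.03 to 12.56), the ER stress gene CRELD2 by 2.63, the ER exchange factor HYOU1 by 1.95 and the secreted stress factor MANF by 1.58. The lectin chaperones CALR (calreticulin) and CANX (calnexin) were the 2 that were lower, by 0.32 and 0.31 (changes of -0.32 and -0.31). CALR then was the 1 gene that rose in period II, by 1.95. Of 6 genes of the ER stress response on the array, sensors and transcription factors among them, 4 were tested in period I. Of these 3 were lower, namely PPP1R15A (-0.77), ATF6B (-0.55) and CREB3L2 (-0.44), beside 35.4% of all genes. XBP1, whose splicing marks the IRE1 branch, stayed between 13.36 and 13.58 in the means of the 4 stages and was not tested for lack of spread. The array does not separate its splice forms. DDIT3 (CHOP) was not called in any comparison.

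The 2 cytosolic HSP90 genes had their falls in different periods by the probe-sets used. HSP90AB1, the constitutive form, was at 14.03 to 14.74 (median 14.46) at 94 dpc, 12.49 to 13.55 (13.06) at 1 dpn, 12.67 to 13.09 (12.93) at 28 dpn and 12.52 to 13.42 (12.92) at 188 dpn. It fell 2.66-fold in period I with no overlap between fetuses and neonates (log2 -1.41 (SE 0.10, q = 8.12e-14)) and stayed there, with changes of -0.11 and -0.005 that were not tested. With array medians subtracted it was called higher in period II (0.24). HSP90AA1, the inducible form, was at 13.72 to 14.11 (median 13.93) at 94 dpc, 13.37 to 14.30 (13.79) at 1 dpn, 13.30 to 13.88 (13.58) at 28 dpn and 12.23 to 13.16 (12.78) at 188 dpn. Its change in period I was -0.13 (not tested), and the fall came in period III (-0.83 (SE 0.10, q = 2.05e-08)) with no overlap. The 5 probe-sets of HSP90AA1 did not give 1 direction. In period I 2 of the others were called higher (0.87 and 0.31), in period III 3 of the 5 were called lower, 1 higher (0.77) and 1 not tested, and over the whole span 3 were called lower and 2 higher (0.49 and 0.68), so that the stage of its highest level is uncertain. The summed erythroid marker level was lower in neonates than in fetuses, with 6 of 7 tested markers lower and none higher in period I, where all genes gave 35.4% lower and 33.9% higher. Its part in the fall of HSP90AB1 was not tested.

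HSPA8 (HSC70), the constitutive HSP70, was at 13.38 to 14.25 (median 13.89) at 94 dpc, 13.42 to 14.74 (13.69) at 1 dpn, 12.87 to 14.04 (13.44) at 28 dpn and 11.60 to 13.25 (12.51) at 188 dpn. It fell in period III by 1.03 (SE 0.17, q = 3.49e-06) and was 2.67-fold lower at 188 dpn than in the fetuses with no overlap. Its change in period II (-0.31 (SE 0.14, q = 0.00714)) was no longer called without the neonate that was highest in most members (-0.24) and turned to 0.033 with array medians subtracted. The other 3 probe-sets of HSPA8 were called lower in period I already (-0.52 to -0.66), where the one used was not. Both HSP110 exchange factors fell in periods II and III. HSPH1 was at 8.82 to 10.25 (median 9.73) at 94 dpc, 8.30 to 11.44 (9.63) at 1 dpn, 8.04 to 10.29 (9.09) at 28 dpn and 6.12 to 8.98 (7.44) at 188 dpn, with changes of -0.66 (SE 0.25, q = 0.00379) and -1.39 (SE 0.24, q = 5.72e-06), the former of which was lost with array medians subtracted. HSPA4 rose in period I (0.63 (SE 0.15, q = 7.47e-05)) and fell by 1.29 (SE 0.17, q = 2.1e-08) and 1.03 (SE 0.22, q = 9.18e-05) afterwards. For HSPA4 a second probe-set was called lower in period I (-0.70), so its direction in that period is uncertain. With the probe-sets of HSPA4 averaged, its calls in periods I and III were lost.

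Among the inducible heat shock genes, HSP70.2 was higher at each later postnatal stage and others were not. HSP70.2, an inducible cytosolic HSP70, ranged over 10.04 to 11.89 (median 11.03) at 94 dpc, 10.70 to 12.69 (11.21) at 1 dpn, 11.47 to 12.88 (12.42) at 28 dpn and 12.03 to 13.68 (12.92) at 188 dpn. It was not called in period I (0.29), rose by 0.96 (SE 0.17, q = 1.78e-06) in period II and by 0.59 (SE 0.15, q = 5e-04) in period III, and every pig of 188 dpn was above every fetus (3.59-fold). All 3 of its probe-sets were called higher in periods II and III. DNAJB1, the HSP40 of the heat shock response, rose by 0.51 (SE 0.13, q = 0.00022) in period I and fell by 0.26 (SE 0.10, q = 0.0111) in period III. HSPA6, another inducible form, lay near the array median, which 9 of 16 fetuses and 9 of 16 pigs of 188 dpn exceeded, and with that median as a floor its change in period III turned from 0.46 to -0.041. HSPB1 (HSP27) stayed between means of 11.35 and 11.62 and was not called in any comparison.

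The largest rise of any member over the whole span was that of HSPB8, a small heat shock protein that with BAG3 directs misfolded proteins to autophagy. Its range was 3.67 to 7.50 (median 6.54) at 94 dpc, 7.45 to 9.15 (8.37) at 1 dpn, 9.54 to 10.62 (10.12) at 28 dpn and 10.28 to 11.50 (10.72) at 188 dpn. In the fetuses 1 of 16 animals was above the array median, and all animals of 28 and 188 dpn were. HSPB8 rose by 2.18 (SE 0.33, q = 2.27e-07), 1.67 (SE 0.18, q = 4.16e-10) and 0.74 (SE 0.13, q = 7.18e-06) in periods I to III and the oldest pigs were 23.9-fold above the fetuses, a fold that rests on fetal signals near the background. BAG3 was called higher in all 3 periods as well (0.49, 0.48 and 0.81). HSPB2, a small heat shock protein known from muscle, was at 7.73 to 9.79 (median 8.90) at 94 dpc, 9.13 to 10.44 (9.95) at 1 dpn, 11.15 to 11.73 (11.40) at 28 dpn and 9.79 to 11.67 (11.23) at 188 dpn. It rose by 0.95 (SE 0.16, q = 1.49e-06) and 1.57 (SE 0.11, q = 4.95e-14), the latter with no overlap, and fell by 0.30 (SE 0.14, q = 0.0203) in period III. The call of that fall was lost with array medians subtracted, after Benjamini-Hochberg adjustment, without an intensity filter and in 1 fit of all 4 stages. CRYAB (alpha B-crystallin), its neighbour in the Sscrofa11.1 annotation, rose by 1.39 and 2.06 and fell by 0.43. The annotated spans of CRYAB and HSPB2 overlap, and whether their probe-sets read separate transcripts was not tested. HSPB6 rose by 0.46 and fell by 0.69 (SE 0.13, q = 5.35e-06). 

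**Figure D4:**
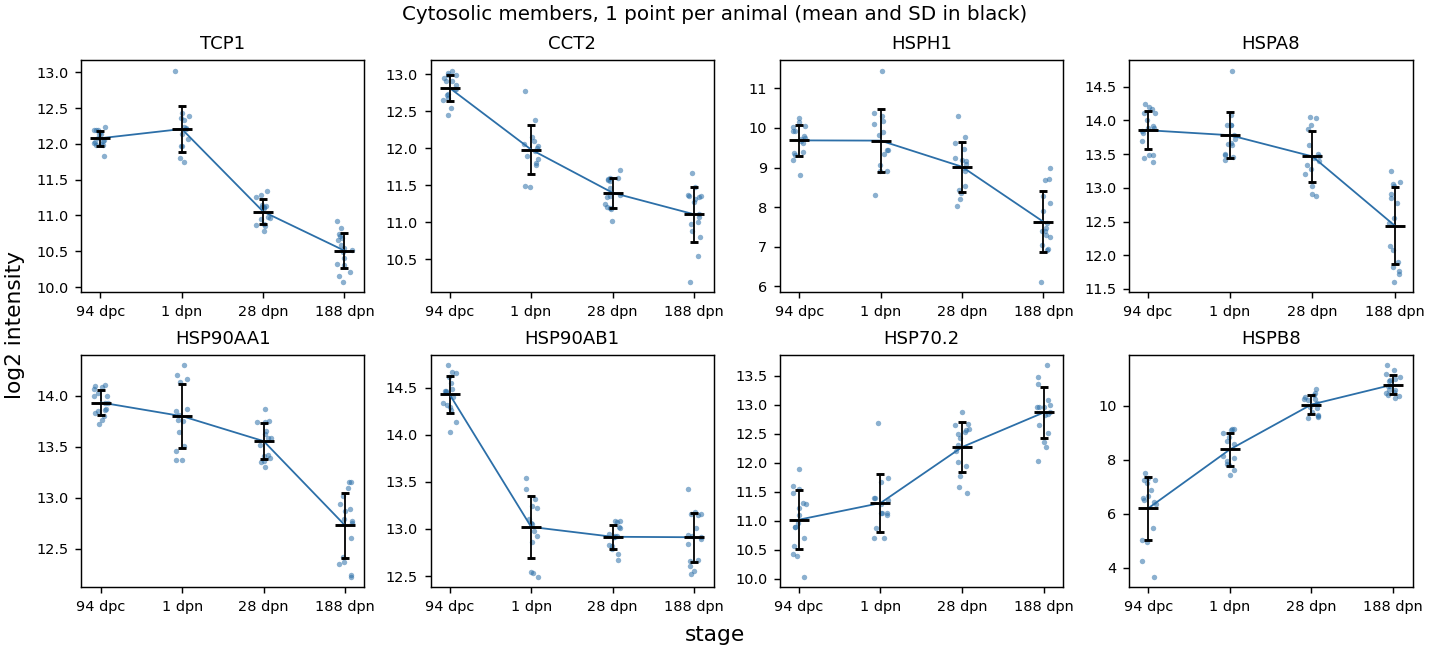
Log2 intensity of 8 cytosolic members in each animal by stage, with mean and SD in black. TRiC subunits, HSPH1, HSPA8 and, by the probe-set used, HSP90AA1 are lowest at 188 dpn, while HSP70.2 and HSPB8 are highest there (means 12.86 and 10.78). In TCP1, HSPH1, HSPA8 and HSP70.2, 1 neonate stands above the rest of its stage.

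The chaperonin TRiC, which folds actin and tubulin, was represented by 6 of its subunit genes. TCP1 was at 11.83 to 12.24 (median 12.07) at 94 dpc, 11.74 to 13.02 (12.21) at 1 dpn, 10.78 to 11.35 (11.11) at 28 dpn and 10.07 to 10.92 (10.53) at 188 dpn. No 28 dpn piglet overlapped with any neonate, with a change of -1.15 (SE 0.10, q = 4.87e-12) in period II and -0.55 (SE 0.09, q = 1.59e-06) in period III. All 6 subunits were lower in period II, from -0.57 (CCT4) to -1.15 (TCP1), and 5 were lower in period III, the other, CCT7, being not tested (-0.0005). Of all genes tested, 39.1% were lower in period II, 39% in period III and 48% over the whole span. CCT2 and CCT4 were already lower in the neonates (-0.83 and -0.41), but the change of CCT4 was 0.0090 when its probe-sets were averaged. The averaging also lost the call of CCT4 in period III. Over the whole span all 6 fell, by 0.68 (change -0.68) for CCT7 up to 1.97 (change -1.97) for CCT6A, and 4 had no overlap, where 29.6% of all genes had none. With array medians subtracted, the median of the 6 was -0.49 in period II, -0.29 in period III and -0.84 from the first to the last stage, and CCT4 lost its call in period II, CCT2 in period III and CCT7 over the whole span, while TCP1 was called higher in period I (0.27). Cell division markers fell in the same periods, with 11 of 12 tested markers lower in period II and 11 of 11 in period III. Only 2 of the 14 exceeded the array median in 50% or more of the pigs of 188 dpn. Their part in the fall of TRiC was not tested. Prefoldin and its relatives, which pass clients to TRiC, were divided. VBP1 fell in periods II and III (-0.75 and -0.72), and PFDN1 rose in period I by 1.07.

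Of the HSP90 cochaperones with a prolyl isomerase domain, FKBP5 and FKBP4 were higher in the neonates and PPID was not called. FKBP5 (FKBP51), which glucocorticoids induce, was at 6.44 to 7.80 (median 7.34) at 94 dpc, 7.83 to 9.90 (8.50) at 1 dpn, 7.22 to 9.03 (8.26) at 28 dpn and 6.73 to 9.54 (7.81) at 188 dpn. All neonates were above all fetuses (1.33 (SE 0.17, q = 1.3e-08), 2.52-fold), although only 7 of 16 fetuses were above the array median. FKBP4 (FKBP52), its counterpart on steroid receptors, rose by 0.70 (SE 0.13, q = 4.21e-06) and fell by 0.40 (SE 0.13, q = 0.00105). PPID (cyclophilin 40) was not called in period I (0.07) and fell in periods II and III (-0.76 and -0.74). Both falls of PPID lost their call when its probe-sets were averaged. STIP1 (HOP), the adaptor of HSP70 and HSP90, took the course of FKBP4 in periods I and II (0.54 and -0.70) and fell by 0.76 in period III.

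Of the small FKBP proteins, FKBP1B (FKBP12.6), a partner of ryanodine receptors, was at 8.94 to 11.32 (median 9.98) at 94 dpc, 11.75 to 12.67 (12.28) at 1 dpn, 11.61 to 13.30 (12.12) at 28 dpn and 10.20 to 12.08 (10.92) at 188 dpn. It rose 5.16-fold in period I with no overlap (log2 2.37 (SE 0.19, q = 9.41e-13)), the largest change of any cytosolic member in period I, and fell by 1.09 (SE 0.19, q = 7.42e-06) in period III. FKBP1A (FKBP12), the protein that binds rapamycin and FK506, peaked in the neonates, with 10.40 to 11.27 (median 10.64) at 94 dpc, 11.08 to 12.26 (11.83) at 1 dpn, 10.32 to 10.73 (10.56) at 28 dpn and 9.87 to 11.14 (10.49) at 188 dpn. It rose by 1.08 (SE 0.11, q = 9.59e-11) and fell by 1.26 (SE 0.10, q = 2.48e-13), the fall with no overlap. PPIA (cyclophilin A) showed means between 14.45 and 14.63 at all stages and was not tested because its spread was under the filter.

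Among cytosolic J proteins, DNAJB4 fell 2.58-fold in period I (-1.37 (SE 0.17, q = 6.86e-09)) and was 4.76-fold lower at 188 dpn than in the fetuses with no overlap. DNAJA1 had means of 11.93, 11.96 and 11.89 up to 28 dpn, with no call in periods I and II where a second probe-set was called lower in period II (-0.41), and fell by 0.96 (SE 0.13, q = 2.43e-07) in period III. DNAJC2 and HSPA14, both of ribosome-associated chaperone complexes, fell in periods II and III, DNAJC2 by 1.12 and 0.86 and HSPA14 by 0.71 and 0.52. DNAJC2 was above the array median in 9 of 15 piglets at 28 dpn and 4 of 16 pigs at 188 dpn. It thus passed the intensity filter of period III by the 28 dpn piglets only. DNAJB6 fell by 0.73 (SE 0.10, q = 1.64e-08) in period I without overlap by the probe-set used, but its 4 probe-sets were called in opposite directions in every comparison. HSPA2 and HSPA12A, a distant HSP70, exceeded the array median in 50% or more of the animals only before birth, and fell by 1.39 and 1.46 in period I.

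Most mitochondrial members changed by less than 1 log2 unit. HSPD1 (HSP60) was at 13.78 to 14.38 (median 14.06) at 94 dpc, 12.96 to 14.34 (13.87) at 1 dpn, 13.10 to 13.97 (13.41) at 28 dpn and 12.19 to 13.82 (13.27) at 188 dpn. It fell in period I (-0.29 (SE 0.12, q = 0.00588)) and period II (-0.33 (SE 0.13, q = 0.00491)), and both calls were lost with array medians subtracted. HSPE1 (HSP10), whose gene is its neighbour, was at 14.65 to 15.29 (median 15.00) at 94 dpc, 13.71 to 14.97 (14.42) at 1 dpn, 14.19 to 14.71 (14.54) at 28 dpn and 13.93 to 14.79 (14.42) at 188 dpn. It fell by 0.54 (SE 0.10, q = 4.25e-06) in period I, was not called in period II and was not tested in period III. HSPA9 (mortalin), which pulls proteins into the matrix, had means of 13.24, 13.32, 13.04 and 12.77, with a change of -0.28 (SE 0.11, q = 0.00488) in period II that turned to 0.071 with array medians subtracted. Its other 2 probe-sets were also called lower in period II, with changes of -0.30 and -3.28, the latter from a mean of 10.64 to 7.36, so the size of the fall differs between them. DNAJA3, its J protein, fell by 0.32 (SE 0.12, q = 0.0025) in period II, a change that turned to 0.023 with array medians subtracted, and rose by 0.43 (SE 0.09, q = 7.45e-05) in period III.

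The exception was PPIF. PPIF (cyclophilin D), which opens the permeability transition pore, was at 10.58 to 11.42 (median 11.04) at 94 dpc, 11.81 to 13.39 (12.66) at 1 dpn, 11.83 to 12.45 (12.32) at 28 dpn and 11.67 to 13.57 (12.40) at 188 dpn. All neonates were above all fetuses (1.67 (SE 0.14, q = 1.19e-12), 3.18-fold) and so were all pigs of 188 dpn (2.81-fold). DNAJC19, a J protein of the import motor, was lowest in the neonates by mean, with 10.72 to 11.74 (median 11.36) at 94 dpc, 9.70 to 11.12 (10.24) at 1 dpn, 10.00 to 10.99 (10.56) at 28 dpn and 10.27 to 11.47 (11.20) at 188 dpn, a fall of 0.98 (SE 0.12, q = 9.56e-09) and a rise of 0.59 (SE 0.12, q = 2.66e-05) in period III. DNAJC11 was higher in periods I and III (0.34 and 0.30), but its second probe-set was called lower over the whole span. Both rises of DNAJC11 lost their call when its probe-sets were averaged. Of 8 further mitochondrial chaperones and proteases, 5 of 7 tested were higher and none lower in period I, where all genes gave 33.9% higher and 35.4% lower. Among the 5 were LONP1 (0.79), the protease of the matrix, and GRPEL1 (1.00), the exchange factor of mortalin. LONP2, listed with them but a protease of the peroxisome, rose by 1.85. YME1L1, a protease of the inner membrane, fell in periods II and III (-1.06 and -0.85).

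**Figure D5:**
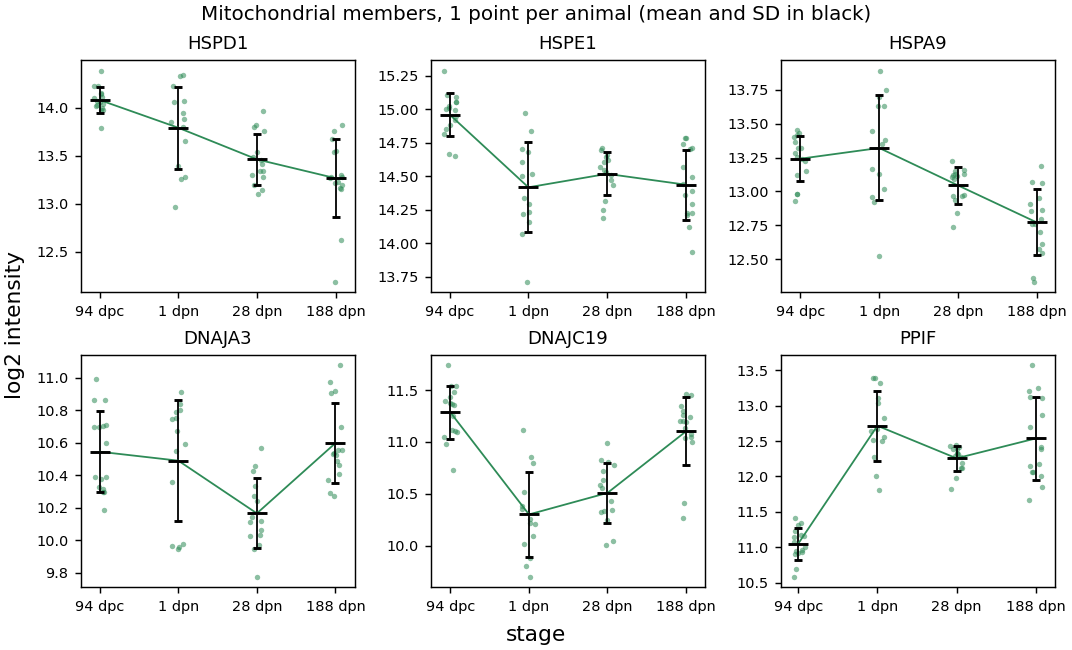
Log2 intensity of 6 mitochondrial members in each animal by stage, with mean and SD in black. HSPD1 and HSPA9 are lowest at 188 dpn, DNAJC19 dips at 1 dpn (mean 10.30), and PPIF is above the fetal range (10.58 to 11.42) in all postnatal animals.

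Outside these compartments, the histone chaperone DNAJC9 had the largest fall over the whole span, with 7.53 to 9.18 (median 8.53) at 94 dpc, 7.77 to 9.73 (9.09) at 1 dpn, 6.23 to 8.54 (7.27) at 28 dpn and 5.16 to 6.91 (5.91) at 188 dpn. It rose by 0.43 (SE 0.18, q = 0.00766) in period I and fell by 1.69 (SE 0.22, q = 2.12e-08) and 1.33 (SE 0.20, q = 9.2e-07), to a level above the array median in 1 of 16 pigs at 188 dpn. Cell division markers fell with it, as given for TRiC. FKBP3, a nuclear prolyl isomerase, fell in each period (-0.55, -0.51 and -0.72), the call of period II being lost with array medians subtracted. HSPB11, which despite its name is an intraflagellar transport protein, also fell in each (-0.24, -0.33 and -0.69). Its first 2 calls were lost with array medians subtracted, after Benjamini-Hochberg adjustment and after quantile normalization. That of period I was also lost in 1 fit of all 4 stages. That of period II was also lost with array weights, without the least correlated array of each stage and without the neonate that was highest in most members. FKBP15 was called higher in period II (0.35) where its other 2 probe-sets were called lower (-1.15 and -0.74). Of the spliceosomal cyclophilins, PPIH rose by 0.31 and fell by 0.50 (SE 0.09, q = 2.95e-06), but under the filter on spread the rise was no longer tested when arrays with outlying 3' to 5' differences or the least correlated array of each stage were left out, and the fall no longer with array medians subtracted. PPIE was not called in any comparison. DNAJC14, which could also be counted with the ER, had changes of -0.71 (SE 0.10, q = 1.14e-07) in period I and 0.51 (SE 0.10, q = 8.45e-06) in period II. DNAJC17 had changes of 0.69 (SE 0.12, q = 1.33e-06) and -0.49 (SE 0.11, q = 2.66e-05), the latter lost with array medians subtracted. PPIG rose by 0.42 (SE 0.20, q = 0.01) in period II. That rise was not called after Benjamini-Hochberg adjustment, with the array median as a floor or with probe-sets averaged.

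Within a stage, some partners varied together from animal to animal. For 5 pairs of members, chosen after their values were seen, correlations were computed in each stage, 20 in all, with two-sided permutation tests (100000 resamples) and p-values adjusted over the 20 by Benjamini and Hochberg. Of these, 11 passed 0.05 after adjustment by Pearson's r and 10 by Spearman's rho. HSPA5 and HSP90B1 had Pearson's r of 0.16 in the fetuses (p = 0.547, adjusted 0.684), 0.72 in the neonates (p = 0.003, 0.00667), 0.71 at 28 dpn (p = 0.00271, 0.00667) and 0.90 at 188 dpn (p = 1e-05, the smallest the resampling can give, 0.0001). Spearman's rho was 0.17, 0.76, 0.63 and 0.90, with p of 0.533, 0.00231, 0.0141 and 2e-05 (adjusted 0.71, 0.0077, 0.0313 and 0.0002). Leaving out the 2 animals farthest from the median of HSPA5 gave r of 0.29, 0.69, 0.55 and 0.87. HSPA5 and DNAJB11 gave r of -0.06 in the fetuses (p = 0.832, adjusted 0.876), and 0.80, 0.81 and 0.74 at the later stages (p = 0.00047, 0.00039 and 0.00094, adjusted 0.0017, 0.0017 and 0.00269). Their rho was -0.14, 0.75, 0.79 and 0.65 (p = 0.612, 0.00307, 0.00082 and 0.00732, adjusted 0.765, 0.00877, 0.00328 and 0.0183), and r without the 2 farthest animals -0.11, 0.81, 0.79 and 0.78. At 188 dpn r was 0.59 (p = 0.0431, adjusted 0.0671) without 4 arrays of outlying 3' to 5' differences.

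HSPA8 and HSP90AA1 reached r = 0.93 and rho = 0.91 at 188 dpn (p = 1e-05 and 2e-05, adjusted 0.0001 and 0.0002), and 0.91 without the 2 farthest animals. At the other stages their r was 0.14, 0.50 and 0.54 (p = 0.589, 0.0626 and 0.0376, adjusted 0.693, 0.0964 and 0.0626), with rho of 0.06, 0.31 and 0.51 (p = 0.831, 0.272 and 0.057, adjusted 0.875, 0.418 and 0.104). At 28 dpn r was 0.82 (p = 0.00094, adjusted 0.00376) without 2 arrays of outlying 3' to 5' differences and 0.62 (p = 0.0162, adjusted 0.027) after quantile normalization, both of which pass. Across compartments, HSPA5 and HSPA8 gave r of -0.07, 0.69, 0.59 and 0.82 (p = 0.8, 0.00918, 0.0214 and 0.00027, adjusted 0.876, 0.0184, 0.0389 and 0.0017). Their rho was -0.11, 0.48, 0.59 and 0.83 (p = 0.688, 0.087, 0.0233 and 0.00013, adjusted 0.81, 0.145, 0.0465 and 0.00065). Without the 2 farthest animals r was 0.30 in the neonates, 0.38 at 28 dpn and 0.91 at 188 dpn. Leaving out extremes of HSPA5 also narrows its range, so whether the relations rest on those animals cannot be told. Without arrays of outlying 3' to 5' differences r was 0.67 in the neonates (p = 0.0192, adjusted 0.0349) and 0.71 at 28 dpn (p = 0.0072, adjusted 0.0144). After quantile normalization these were 0.66 (p = 0.0127, adjusted 0.0231) and 0.64 (p = 0.0109, adjusted 0.0219). The neighbours HSPD1 and HSPE1 correlated in the neonates (r = 0.80, p = 0.00051, adjusted 0.0017, rho = 0.87, p = 0.00011, adjusted 0.00065, r without the 2 farthest 0.86) and not detectably at the other stages (r of -0.21, 0.23 and -0.02, p = 0.427, 0.417 and 0.94, adjusted 0.569, 0.569 and 0.94, rho of -0.09, 0.22 and 0.03, p = 0.737, 0.434 and 0.927, adjusted 0.819, 0.62 and 0.927). Whether the correlations differ between stages was not tested. Littermates among the animals are not known, and the spread of HSPA5 was smallest in the fetuses (SD 0.21 against 0.25 to 0.45).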

How the data were processed

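Liver RNA of 61 LP offspring was measured on Affymetrix GeneChip Porcine Genome Arrays. The deposited table holds 1 linear intensity per probe-set and array, which the authors computed with GCOS 1.1.1, scaling each array globally (mean signal after trimming 2% at each end 500.1 to 500.2). Depth has no meaning for arrays, and their number limits the precision. Groups came from the stage in the labels. Of 23999 probe-sets without controls, 10069 had 1 gene symbol in the platform annotation, 198 several and 13732 none. These last were unnamed here. All 75 members but CCT6A had an Entrez ID in the RefSeq table (Sscrofa11.1). Log2 values were fitted with limma 3.58.1 (R 4.3.3), 2 stages at a time with stage as the only term, over probe-sets that exceeded the array median in 50% or more of the animals at 1 of both stages and had an SD above 0.25. Storey q-values used lambda from 0.05 to 0.95 in steps of 0.05. The study's methods add sex, mother and weight, which the labels lack, and its other normalization (GC-RMA) was not used here. No 2 arrays correlated above 0.9163, so none was treated as a duplicate. The fit was tested on simulated data.

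In each comparison and compartment the 3 called members that rose most and the 3 that fell most are named, with a list of core chaperones, up to 4 called genes of each further gene list, and members whose probe-sets were called in opposite directions. FKBP7, FKBP9, FKBP11, HSPB6, PPID, DNAJC2 and HSPA14 were added with their values known. Members, compartments and gene lists were chosen with earlier results of these data known. The alternatives were 13 settings, to which the one without the high neonate and those of the correlations were added after seeing the data. Sequences of the members were not used here.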

Additional observations from a re-analysis of the deposited data

How the results depend on the processing

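The intensity and SD filters, the Benjamini-Hochberg adjustment, array weights, a pseudocount of 16, the array median as a floor, 1 fit of all 4 stages, and the exclusion of 9 arrays with outlying 3' to 5' differences, of the least correlated array of each stage or of the high neonate (chosen after seeing the data) kept each count of calls within 1.5 times and reversed no called change but that of HSPA6 in period III (-0.041 with the floor).

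Subtracting array medians gave the most differences. Calls in period II were 16 higher and 21 lower, with median changes of -0.31 (ER), 0.045 (cytosol) and 0.071 (mitochondrion). In period III 14 were higher, with medians of -0.097 (cytosol) and 0.44 (mitochondrion). Over the whole span 27 were higher and 27 lower, with medians of -0.21, -0.047 and 0.47. In period II the changes of HSPA5 (0.018), HSPA8 (0.033), HSPA9 (0.071), HSP90AA1 (0.10), HSPD1 (0.018), DNAJA3 (0.023), DNAJC24 (0.045) and HSPB11 (0.015) were reversed and not called. From the first to the last stage so were those of HSPE1 (0.13), HSPA9 (0.18), PDIA6 (0.11), HSPA6 (0.070), HSPBP1 (0.22) and PPIG (0.21), and FKBP1A (0.36) and DNAJA2 (0.29) were called higher.

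Quantile normalization moved the cytosolic median of the whole span to -0.34 and reversed HSPA6 (0.048), HSPBP1 (0.19), PPIG (0.16) and DNAJA2 (0.042), none called. When the probe-sets of a gene were averaged, the mitochondrial median of period III was 0.044, DNAJC11 (-0.10) and CCT4 (0.0090) were reversed in period I and not called, and FKBP15 in period II (-0.52) and PDIA4 over the whole span (-0.41) were called lower. Averaging also lost the calls, or the tests, of DNAJB6 and HSPA4 in period I and of PPID and PPIG in period II. In period III those of CCT4, DNAJB14, DNAJC11, HSPA13, HSPA4, PPID and PPIG were lost. Over the whole span those of DNAJB6, DNAJC11, FKBP5 and PPIG were lost. The cause of these differences was not tested. Averaging did mix probe-sets called in opposite directions for FKBP15 in period II and for PDIA4 over the whole span. Those of DNAJC11 were called in opposite directions only over the whole span, not in period I. No paired analysis was possible because no animal was sampled at more than 1 stage and the labels share no number between stages.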
